A study of Mus musculus with 18 samples.

Results

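The cytochrome P450 family 4 (CYP4) genes described here are 10 rows of a liver gene count table, 6 of them Cyp4a, 3 Cyp4f and 1 Cyp4v, out of 55487 genes in all and 28 genes whose symbol begins with Cyp4. They were picked by symbol, but the list was drawn up with the group levels and fold changes of these same livers already known, so it counts as chosen by those values. Levels, fold changes and calls of the 10 genes are therefore given as a description, with no p-value.

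The livers came from 18 male C57BL/6J mice, 6 in each of 3 groups, which had been 7 weeks old at purchase. All mice had received adeno-associated virus 8 whose TBG promoter limits the transgene to hepatocytes, injected 1 week before a diet of 16 weeks, and all were fasted for 4 h before tissue was taken. CON-GFP mice carried GFP and ate the purified control diet. FPC-GFP mice carried GFP and ate the FPC diet, a high-fat diet with fructose, palmitate and cholesterol, together with sugar water. FPC-LIPA mice ate the same FPC diet and carried human LIPA, the gene of lysosomal acid lipase (LAL), which frees fatty acids and cholesterol from lipids delivered to lysosomes. The GFP groups thus share the vector, and no untreated liver and no LIPA liver on the control diet was analysed here.

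CYP4 enzymes sit in the endoplasmic reticulum and add a hydroxyl group to the far (omega) end of fatty acids and eicosanoids, using electrons passed on by cytochrome P450 reductase and cytochrome b5. Alcohol and aldehyde dehydrogenases turn the products into dicarboxylic acids, which peroxisomes shorten. In mouse liver the Cyp4a genes Cyp4a10 and Cyp4a14 are classic targets of the fatty acid receptor PPARα, Cyp4a12a is a male-biased arachidonic acid hydroxylase that depends on androgen and on the male pattern of growth hormone, and Cyp4f enzymes inactivate leukotrienes.

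All P450 enzymes hold their heme iron through 1 cysteine, and the 30 coding bases around it show which of the 10 genes are identical there. In every gene these bases run across the junction of 2 exons. They are printed 5′ to 3′ on the coding strand from the GENCODE M21 transcripts of GRCm38, with the cysteine codon in capitals, and the coordinates span the intron between the pieces.
Cyp4a10 (chr4:115529502-115532543), Cyp4a31 (chr4:115574950-115577948) and Cyp4a32 (chr4:115614880-115621446), all on the + strand: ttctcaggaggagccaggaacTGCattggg
Cyp4a12a (chr4:115328986-115331846) and Cyp4a12b (chr4:115435240-115438069), both on the + strand: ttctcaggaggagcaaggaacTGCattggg
Cyp4a14 (chr4:115487299-115489805, - strand): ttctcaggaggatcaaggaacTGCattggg
Cyp4f13 (chr17:32924942-32925340, - strand): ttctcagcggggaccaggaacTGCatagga
Cyp4f14 (chr17:32905666-32906065, - strand): ttctcggcgggacccaggaacTGCatagga
Cyp4f15 (chr17:32702398-32702801, + strand): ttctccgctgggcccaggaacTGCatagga
Cyp4v3 (chr8:45307107-45308407, - strand): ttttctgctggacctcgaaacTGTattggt
Cyp4a12a and Cyp4a12b were the same over these bases, as were Cyp4a10, Cyp4a31 and Cyp4a32. Cyp4a14 differed from Cyp4a12a at 1 base (G13T, counted from 1 at the 5′ end) and from Cyp4a10 at 2 (G13T and C15A). Cyp4v3, the only gene with the other cysteine codon, differed from the rest at 9 to 11 bases.

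Over the whole coding sequence Cyp4a12a and Cyp4a12b were 98.5% identical, with 23 differing positions and 342 consecutive identical bases. The stretch of exon 6 below is shown because no other 60 coding bases within 1 exon differ more between the pair. Bases that differ are in capitals, and untranslated parts were not searched.
Cyp4a12a (chr4:115326628-115326687, + strand): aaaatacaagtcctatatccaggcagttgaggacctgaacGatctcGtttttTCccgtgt
Cyp4a12b (chr4:115432881-115432940, + strand): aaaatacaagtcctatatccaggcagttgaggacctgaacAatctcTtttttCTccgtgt
Cyp4a10 and Cyp4a32 were 97.2% identical, and the stretch of exon 2 below is shown for the same reason.
Cyp4a10 (chr4:115519640-115519699, + strand): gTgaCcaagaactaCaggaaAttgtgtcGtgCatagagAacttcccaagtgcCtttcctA
Cyp4a32 (chr4:115602270-115602329, + strand): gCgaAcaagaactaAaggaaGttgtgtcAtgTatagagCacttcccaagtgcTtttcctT
Cyp4a31 was 96.6% identical to Cyp4a10 and 96.0% to Cyp4a32. Cyp4a14 was 75.1% to 76.2% identical to the other Cyp4a genes, the 3 Cyp4f genes were at least 74.8% identical to each other, and Cyp4v3 was 51.1% to 53.1% identical to any other member. Of the 150-base stretches of the transcript, the length of 1 read, 25.6% in Cyp4a12a and 25.9% in Cyp4a12b occur in the other gene unchanged. That share was 4.34% in Cyp4a10, 4.19% in Cyp4a31 and 7.97% in Cyp4a32. It was 4.48% in Cyp4v3, all of it shared with the overlapping gene Gm45753, and 0 in the other 4 genes. Cyp4a12b also overlaps Gm12837, and values within these pairs and trios are uncertain to that extent.

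The libraries held 16632146 to 37739301 counts, and each value of a member rests on at least 43 of them. Cytosolic ribosomal protein genes took 1.70% to 2.47% of the counts in CON-GFP, 1.40% to 1.75% in FPC-GFP and 2.11% to 2.87% in FPC-LIPA 31, 33 and 34, but 6.34%, 7.98% and 8.03% in FPC-LIPA 36, 37 and 39. These 3 libraries stand apart, so fold changes of the 10 genes in FPC-LIPA were also fitted without them, and several of these are given. Values of other genes and of gene lists are given only with all 6 FPC-LIPA livers. Hepatocyte markers were abundant in every liver, all 10 above a mean of 1 count per M reads (CPM), and the 5 kidney markers had medians of 3 counts or fewer, with Kap and Slc12a1 among those at 0 in every liver. Mouse Lipa stood at 243 ± 33.9 CPM (SD, n = 6) in CON-GFP, 336 ± 59.3 in FPC-GFP and 300 ± 44.8 in FPC-LIPA, and was not DE in any comparison. Human LIPA was not measured in the table of mouse genes, so the transgene could not be checked from these counts.

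The pool of CYP4 transcripts overlapped between groups. Summed over the 10 genes, the level was 1967 to 5589 CPM in CON-GFP (median 2527), 1936 to 3731 in FPC-GFP (median 2632) and 1314 to 2553 in FPC-LIPA (median 2287). The ranges overlap, and CON-GFP 1 alone gave the top value. Levels per kb of all annotated exons allow a rough comparison between genes. The means over the 18 livers were 442 CPM per kb for Cyp4a14, 286 for Cyp4a10, 89.0 for Cyp4a12a, 69.4 for Cyp4v3 and 51.1 for Cyp4f15. They were 40.4 for Cyp4f14, 29.7 for Cyp4a32, 13.3 for Cyp4a12b, 9.75 for Cyp4f13 and 5.57 for Cyp4a31. The annotated exons of Cyp4f13 cover 4441 bases, but its transcript used for the sequences above has 1752. The place of Cyp4f13 in that order thus depends on the length used. In CON-GFP every neighbouring pair of that order overlapped between livers except Cyp4a10 and Cyp4a12a, whose lowest and highest livers were at 170 and 142 CPM per kb. In FPC-LIPA Cyp4a12b had the lowest mean, at 0.725 to 4.16 CPM per kb, overlapping Cyp4a31 at 2.18 to 7.04.

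**Figure D1:**
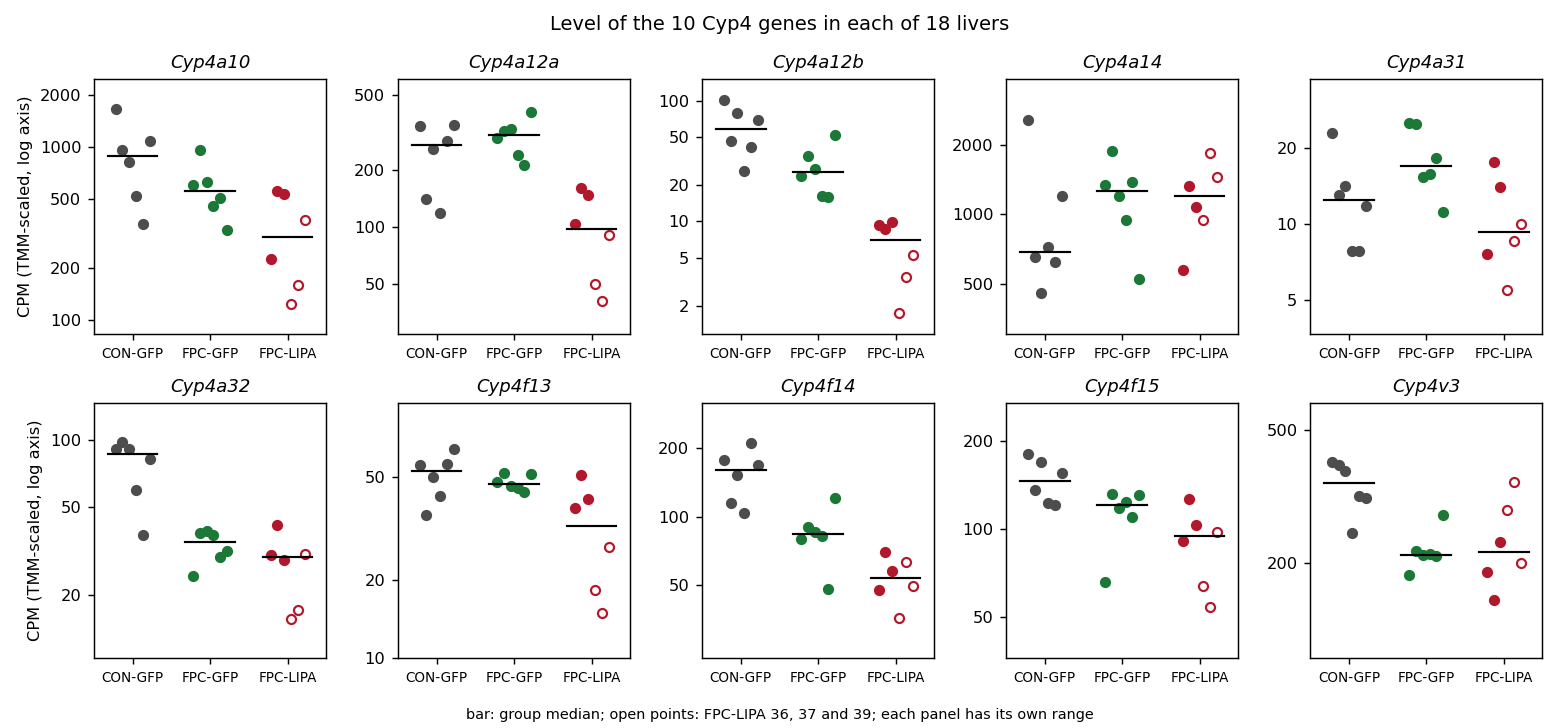
Level of each of the 10 Cyp4 genes in each liver, in TMM-scaled CPM on a log axis with its own range per panel; 1 point is 1 liver, bars are medians of 6 livers, and open points are FPC-LIPA 36, 37 and 39. The 6 FPC-LIPA livers sit below all FPC-GFP livers for Cyp4a12a (40.6 to 161 against 213 to 404 CPM) and Cyp4a12b (1.74 to 9.96 against 16.0 to 51.5 CPM), while the groups overlap for Cyp4a14.

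A gene was called differentially expressed (DE) where it changed 2-fold or more and its p, adjusted over all genes tested, was under 0.05. All 10 members passed the filter on low counts in each comparison. In FPC-GFP against CON-GFP, which asks what the diet changes, 2 of the 10 were DE, Cyp4a12b and Cyp4a32, beside 7.20% of the 14307 genes tested. Both were lower, as were 2.44% of all genes, while 4.76% were DE and higher. In FPC-LIPA against FPC-GFP, which asks what LAL overexpression changes on the FPC diet, Cyp4a12a and Cyp4a12b were DE, beside 11.4% of 14620 genes. Both were lower, against 1.11% DE and lower and 10.3% DE and higher over all genes. In FPC-LIPA against CON-GFP, 5 of the 10 were DE and lower (Cyp4a10, Cyp4a12a, Cyp4a12b, Cyp4a32 and Cyp4f14), beside 15.1% of 14433 genes DE, 3.25% DE and lower and 11.8% DE and higher. Since the list was drawn up with these contrasts known, nothing is read from these counts. The median log2 fold change of the 10 genes was -0.52, -0.61 and -1.05 in the 3 comparisons, beside 0.01, 0.04 and 0.04 for all genes tested. Each pair of comparisons shares a group of 6 livers, so the values of one are not independent of the next.

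**Figure D2:**
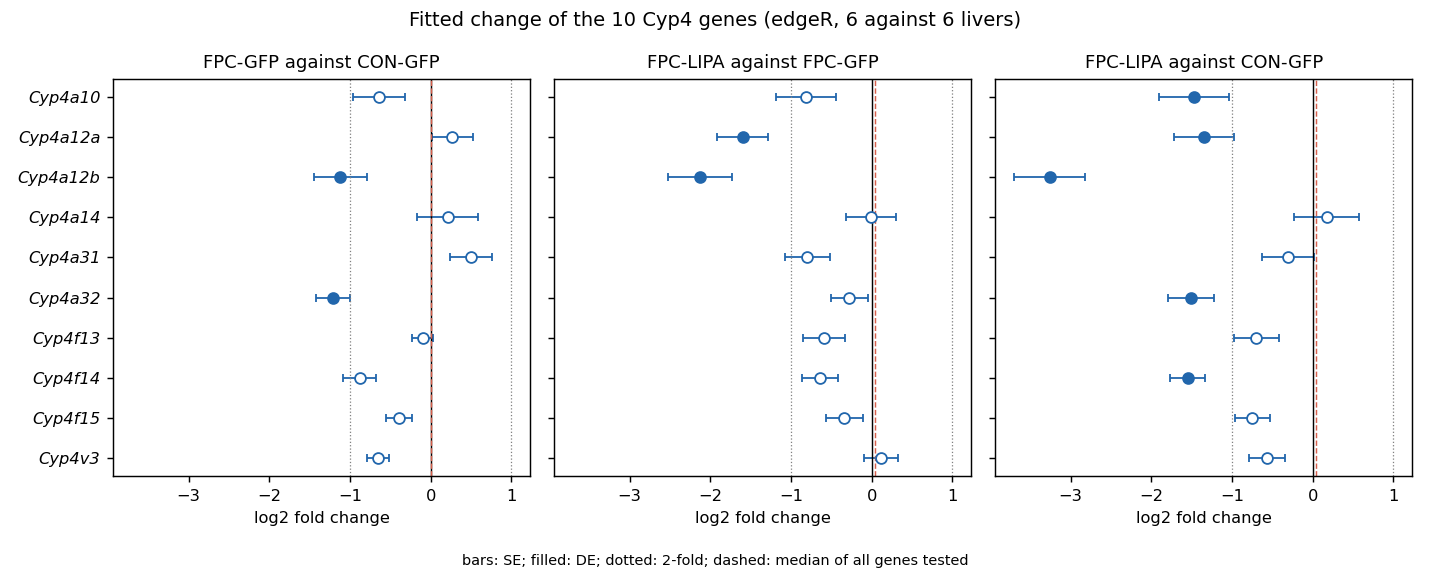
Fitted log2 fold change of each gene (points) with its SE (bars) in the 3 comparisons of 6 against 6 livers, filled where DE; dotted lines mark a 2-fold change and dashed lines the median of all genes tested. Cyp4a12b lies lowest in both FPC-LIPA comparisons, at -2.13 and -3.26, and Cyp4a14 lies at 0.21, -0.01 and 0.17.

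Separation of the single livers was counted as well. None of the 10 genes had all FPC-GFP livers below or above all CON-GFP livers, where 4.41% and 6.19% of all genes tested did. Cyp4a12a and Cyp4a12b had all FPC-LIPA livers below all FPC-GFP livers, where 3.76% of all genes did and 3.81% lay wholly above. Cyp4a12b and Cyp4f14 had all FPC-LIPA livers below all CON-GFP livers, where 4.84% of all genes did and 6.26% lay wholly above.

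Cyp4a12a (ENSMUSG00000066071, chromosome 4, 115299046 to 115332815, + strand of GRCm38) is the main arachidonic acid omega hydroxylase of male mice and makes a vasoactive eicosanoid. It was measured at 118, 270 and 345 CPM (lowest, median, highest) in CON-GFP, at 213, 307 and 404 in FPC-GFP and at 40.6, 96.6 and 161 in FPC-LIPA. Diet alone left the ranges overlapping, whereas every FPC-LIPA liver was below every FPC-GFP liver, with FPC-LIPA 36 and 37 lowest. The 2 low control livers, CON-GFP 2 at 140 CPM and CON-GFP 6 at 118 CPM, are the reason that FPC-LIPA and CON-GFP overlap. Its log2 fold change was 0.27 (SE 0.25) for the diet, -1.60 (SE 0.32) for LIPA on the FPC diet and -1.35 (SE 0.37) for FPC-LIPA against CON-GFP. Without FPC-LIPA 36, 37 and 39 the latter values were -1.12 (SE 0.22), still DE, and -0.85 (SE 0.33), not DE. Among libraries with sample sheet numbers from 55 to 68 alone, a range that FPC-LIPA 37, FPC-GFP 20, CON-GFP 1 and CON-GFP 2 fall outside, they were -1.34 (SE 0.29) and -1.20 (SE 0.38), neither DE.

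Cyp4a12b (ENSMUSG00000078597, chromosome 4, 115411624 to 115439034, + strand) lies in the same gene cluster as Cyp4a12a and codes for a nearly identical enzyme. It was measured at 26.1, 58 and 101 CPM in the control livers, 16.0, 25.5 and 51.5 in FPC-GFP and 1.74, 6.95 and 9.96 in FPC-LIPA. The highest FPC-LIPA liver was below the lowest of both other groups, and FPC-GFP lay between them with overlap only toward CON-GFP. In the order of comparisons above, it changed by -1.12 (SE 0.33), -2.13 (SE 0.40) and -3.26 (SE 0.44) on the log2 scale, DE in each. Without the 3 libraries high in ribosomal protein counts they were -1.59 (SE 0.35) against FPC-GFP and -2.70 (SE 0.38) against CON-GFP, both DE. Within sheet numbers 55 to 68 the LIPA value was -1.75 (SE 0.40) and not DE. The diet call was lost when CON-GFP 1, FPC-GFP 16 or FPC-GFP 19 was left out, at -0.91 (SE 0.32), -1.0 (SE 0.34) and -1.0 (SE 0.34).

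The balance within the pair differed between diets. Cyp4a12b made up 12.7% to 24.9% of the summed Cyp4a12a and Cyp4a12b level in CON-GFP (median 20.5%), 6.25% to 11.3% in FPC-GFP (median 7.56%) and 3.38% to 8.37% in FPC-LIPA (median 5.88%). All livers on the FPC diet were below all control livers in this share, and the FPC groups overlapped. The pair was also summed to 1 row before the fit, so that the split of counted reads between them has no effect. Reads dropped at counting, if any, are not restored by the sum. The summed row had log2 fold changes of 0.08 (SE 0.25), -1.64 (SE 0.32) and -1.57 (SE 0.37) in the 3 comparisons, the latter 2 DE.

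**Figure D3:**
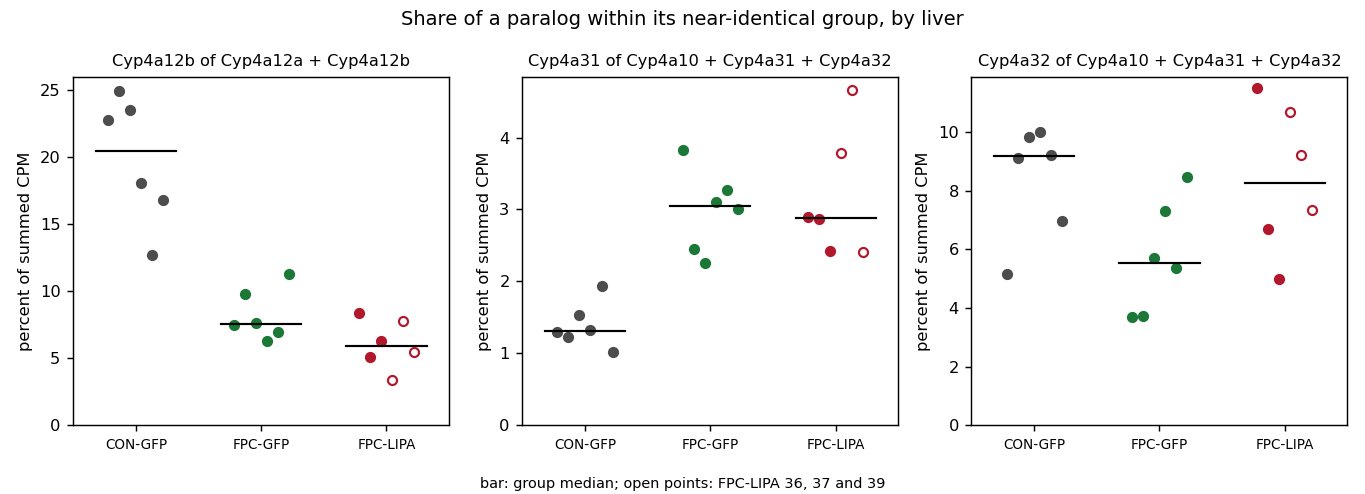
Share of one paralog in the summed CPM of its near-identical group, in percent, for each liver (points) with the median of 6 livers (bars) and open points for FPC-LIPA 36, 37 and 39. The share of Cyp4a12b is 12.7% or more in CON-GFP livers and 11.3% or less in the livers on the FPC diet, and that of Cyp4a31 is 1.94% or less in CON-GFP livers and 2.25% or more in the rest.

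Cyp4a10 (ENSMUSG00000066072, chromosome 4, 115518264 to 115533649, + strand), a fatty acid omega hydroxylase whose transcription PPARα drives, was measured at 358, 891 and 1654 CPM in CON-GFP, 330, 557 and 956 in FPC-GFP and 124, 300 and 559 in FPC-LIPA. The groups overlapped in each comparison, with CON-GFP 1 highest and FPC-LIPA 36 and 37 lowest. Fitted log2 fold changes were -0.64 (SE 0.32), -0.81 (SE 0.37) and -1.47 (SE 0.43), the last DE. That call was lost without FPC-LIPA 36, 37 and 39, at -1.03 (SE 0.43), within sheet numbers 55 to 68, at -0.95 (SE 0.45), and without CON-GFP 1, at -1.21 (SE 0.42). Against FPC-GFP it was DE when FPC-LIPA 33 was left out, at -1.03 (SE 0.37).

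Cyp4a14 (ENSMUSG00000028715, chromosome 4, 115486200 to 115496142, - strand), the other strongly PPARα-dependent hydroxylase and the member with the highest mean, showed no such order of the groups. It stood at 455, 687 and 2562 CPM in CON-GFP, 527, 1265 and 1867 in FPC-GFP and 576, 1197 and 1843 in FPC-LIPA. CON-GFP 1 was the highest liver of all, the other control livers reached 1202 CPM at most, and the groups overlapped throughout. Its log2 fold changes were 0.21 (SE 0.38), -0.01 (SE 0.31) and 0.17 (SE 0.40), none DE, and without CON-GFP 1 the diet value was the highest of the values with 1 library left out, at 0.72 (SE 0.29). The ratio of Cyp4a14 to Cyp4a10 counts per M was 0.554 to 1.73 in CON-GFP, 1.60 to 2.72 in FPC-GFP and 2.00 to 11.6 in FPC-LIPA. Every FPC-LIPA liver exceeded every CON-GFP liver in that ratio, and the largest ratios, 7.62 and 11.6, were in FPC-LIPA 36 and 37.

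Cyp4a32 (ENSMUSG00000063929, chromosome 4, 115600969 to 115621602, + strand), a close copy of Cyp4a10 in the same cluster, was measured at 37.3, 86.4 and 97.6 CPM in CON-GFP, 24.2, 34.4 and 38.9 in FPC-GFP and 15.5, 29.5 and 41.4 in FPC-LIPA. Only CON-GFP 7, at 37.3 CPM, reached down into the ranges of the FPC groups. The log2 fold changes were -1.21 (SE 0.21), -0.28 (SE 0.23) and -1.51 (SE 0.29), DE against CON-GFP in both groups on the FPC diet and also so in each fit with 1 library left out. Its annotated exons hold coding sequence with almost no untranslated part, so its level per kb compares less well with the others.

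Cyp4a31 (ENSMUSG00000028712, chromosome 4, 115563649 to 115579015, + strand), the third of these copies, was the least abundant member per kb. It was measured at 7.81, 12.4 and 23.0 CPM in CON-GFP, 11.2, 17.0 and 25.1 in FPC-GFP and 5.48, 9.30 and 17.7 in FPC-LIPA. The groups overlapped in each comparison. The fitted values were 0.50 (SE 0.26), -0.80 (SE 0.28) and -0.31 (SE 0.32) on the log2 scale, none DE, although it was DE against FPC-GFP at -1.01 (SE 0.26) without FPC-LIPA 33.

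The balance within the trio of copies differed between diets too. Cyp4a31 made up 1.01% to 1.94% of the summed level of Cyp4a10, Cyp4a31 and Cyp4a32 in CON-GFP, 2.25% to 3.83% in FPC-GFP and 2.41% to 4.66% in FPC-LIPA, so that all livers on the FPC diet were above all control livers. The share of Cyp4a32 had medians of 9.18%, 5.52% and 8.28%, with overlap between all groups. As 1 summed row the trio had log2 fold changes of -0.66 (SE 0.31), -0.78 (SE 0.35) and -1.45 (SE 0.42), the last DE.

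The Cyp4f genes lie together on chromosome 17 and code for hydroxylases of leukotrienes, prostaglandins and long-chain fatty acids. Cyp4f14 (ENSMUSG00000024292, 32905070 to 32917342, - strand), the leukotriene B4 hydroxylase of mouse liver, was measured at 104, 161 and 210 CPM in CON-GFP, 47.9, 84.1 and 121 in FPC-GFP and 35.8, 53.6 and 69.7 in FPC-LIPA. All FPC-LIPA livers were below all control livers, and FPC-GFP overlapped both groups, with FPC-GFP 20 high and FPC-GFP 19 low. Its log2 fold changes were -0.88 (SE 0.20), -0.64 (SE 0.22) and -1.55 (SE 0.22), the last DE. Without FPC-LIPA 36, 37 and 39 that last value was -1.40 (SE 0.24), still DE, and the diet value was DE within sheet numbers 55 to 68, at -1.05 (SE 0.21).

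Cyp4f15 (ENSMUSG00000073424, 32685627 to 32703352, + strand), a related enzyme, was measured at 121, 146 and 180 CPM in CON-GFP, 65.7, 121 and 132 in FPC-GFP and 53.9, 94.3 and 127 in FPC-LIPA. The groups overlapped, and FPC-GFP 11 was far below the other FPC-GFP livers. Its log2 fold changes were -0.39 (SE 0.16), -0.34 (SE 0.23) and -0.75 (SE 0.22), none DE. Cyp4f13 (ENSMUSG00000024055, 32924688 to 32947402, - strand) was measured at 35.7, 52.8 and 64.3 CPM in CON-GFP, 43.8, 47.0 and 51.7 in FPC-GFP and 14.9, 32.3 and 50.7 in FPC-LIPA. The GFP groups were alike, and the low FPC-LIPA livers were FPC-LIPA 36, 37 and 39, at 18.3, 14.9 and 26.8 CPM. Its log2 fold changes were -0.10 (SE 0.13), -0.59 (SE 0.26) and -0.70 (SE 0.28), none DE, and the latter values shrank to -0.13 (SE 0.13) and -0.23 (SE 0.19) without those 3 livers. Summed over the 3 genes, Cyp4f levels were 269 to 414 CPM in CON-GFP, 193 to 303 in FPC-GFP and 118 to 248 in FPC-LIPA, the last wholly below CON-GFP.

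Cyp4v3 (ENSMUSG00000079057, chromosome 8, 45304944 to 45333216, - strand) is the mouse counterpart of human CYP4V2, a fatty acid hydroxylase mutated in Bietti crystalline dystrophy of the retina. It was measured at 245, 346 and 400 CPM in CON-GFP, 184, 211 and 278 in FPC-GFP and 155, 215 and 349 in FPC-LIPA. Both FPC groups lay mostly below the control livers, and the highest FPC-LIPA livers were FPC-LIPA 36 and 37. Its log2 fold changes were -0.65 (SE 0.14), 0.11 (SE 0.21) and -0.57 (SE 0.22), none DE. In FPC-LIPA against FPC-GFP the sign turned, to -0.19 (SE 0.17), without FPC-LIPA 36, 37 and 39.

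The ribosomal protein share of a library moved with several of these levels, and its part in the results was not tested. In the 3 libraries where the share was above 6%, Cyp4a12a was at 40.6 to 90.8 CPM against 103 to 161 CPM in the other 3 FPC-LIPA livers, and Cyp4f13 at 14.9 to 26.8 against 37.8 to 50.7. Cyp4a14 was at 944 to 1843 CPM against 576 to 1324, so this gene was not low there. CON-GFP 2 and 6, the control livers with the largest shares (2.32% and 2.47%), also had the lowest Cyp4a12a of their group.

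**Figure D4:**
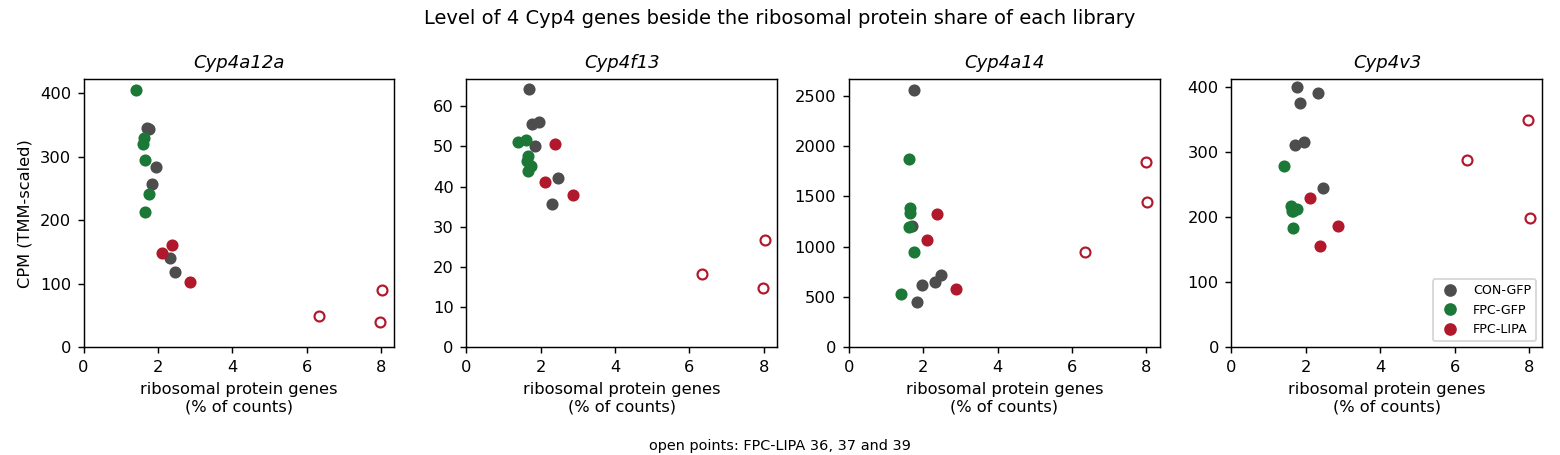
Level of 4 Cyp4 genes (CPM, linear axes from 0) against the share of counts on cytosolic ribosomal protein genes in each of 18 livers, coloured by group with open points for FPC-LIPA 36, 37 and 39. Those 3 libraries lie at 6.34% to 8.03% on the horizontal axis, where Cyp4a12a and Cyp4f13 are low and Cyp4a14 is not. Cyp4v3 is at 288 and 349 CPM in FPC-LIPA 36 and 37. In FPC-LIPA 39 it is at 199 CPM, within the 155 to 230 CPM of the other FPC-LIPA livers.

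Cell markers also moved between the groups. In bulk liver RNA, fewer cells of a type and less RNA per cell cannot be told apart. The 10 hepatocyte markers summed to 77558 to 113409 CPM in CON-GFP, 65768 to 92633 in FPC-GFP and 53586 to 79916 in FPC-LIPA. In the 3 comparisons 3, 1 and 5 of them were DE and lower, with none higher. The shares of all genes that were DE and lower were 2.44%, 1.11% and 3.25%. The 12 leukocyte markers summed to 91.3 to 190, 257 to 547 and 614 to 1028 CPM, with no overlap between any groups. Of these, 6, 6 and 9 were DE and higher, as were 4.76%, 10.3% and 11.8% of all genes. The macrophage lysozyme gene Lyz2 made up the largest part of each sum, with means of 49.7, 136 and 500 CPM. Its log2 fold change was 1.88 (adjusted p = 0.00844, SE 0.30) in FPC-LIPA against FPC-GFP. In that comparison 10 of the 12 markers had log2 fold changes above 0 and 2 below. The means of Csf1r (61.7 CPM in FPC-GFP and 56.1 in FPC-LIPA) and Cd74 (113 and 111) did not rise. The 8 stellate and endothelial markers summed to 220 to 307, 282 to 333 and 369 to 1080 CPM, with FPC-LIPA 37 the highest liver. The collagen gene Col3a1 was DE and higher in all 3 comparisons. In FPC-LIPA against FPC-GFP it was the only one DE, and 5 of the 8 had log2 fold changes below 0 (median -0.08). The higher sum in FPC-LIPA was thus not shared by most of these markers. The 5 cholangiocyte markers summed to 28.1 to 47.0, 41.4 to 107 and 38 to 210 CPM, with overlap throughout, and Spp1 was DE and higher in FPC-LIPA against CON-GFP. Of the 5 pancreas markers the elastase gene Cela1 alone was tested, at 23.9 to 92.8, 11.2 to 15.4 and 18.9 to 69.8 CPM, and the other 4 had medians of 3 counts or fewer. The part of these shifts in the CYP4 levels was not tested.

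The members were also compared by how they varied together. Correlations are Pearson's r of log2 CPM after each group's mean was subtracted, given for description, since livers share their library's depth and RNA makeup. Over 18 livers r was 0.91 between Cyp4a12a and Cyp4f13, 0.90 between Cyp4a10 and Cyp4a31, 0.84 between Cyp4a12a and Cyp4a12b, 0.81 between Cyp4a32 and Cyp4f15 and 0.79 between Cyp4a10 and Cyp4a32. Over the 12 GFP livers these values were 0.88, 0.89, 0.81, 0.67 and 0.71. Cyp4a12a with Cyp4f13 and Cyp4a32 with Cyp4f15 each join a gene of chromosome 4 with one of chromosome 17. Cyp4a12a and Cyp4f14, likewise on different chromosomes, had r = 0.64 over all livers and 0.84 over the GFP livers. Cyp4a10 and Cyp4a14 went together in the GFP livers (r = 0.76) and less so over all livers (r = 0.52), whereas Cyp4f13 and Cyp4v3 had r = -0.63 over all livers and 0.07 over the GFP livers.

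**Figure D5:**
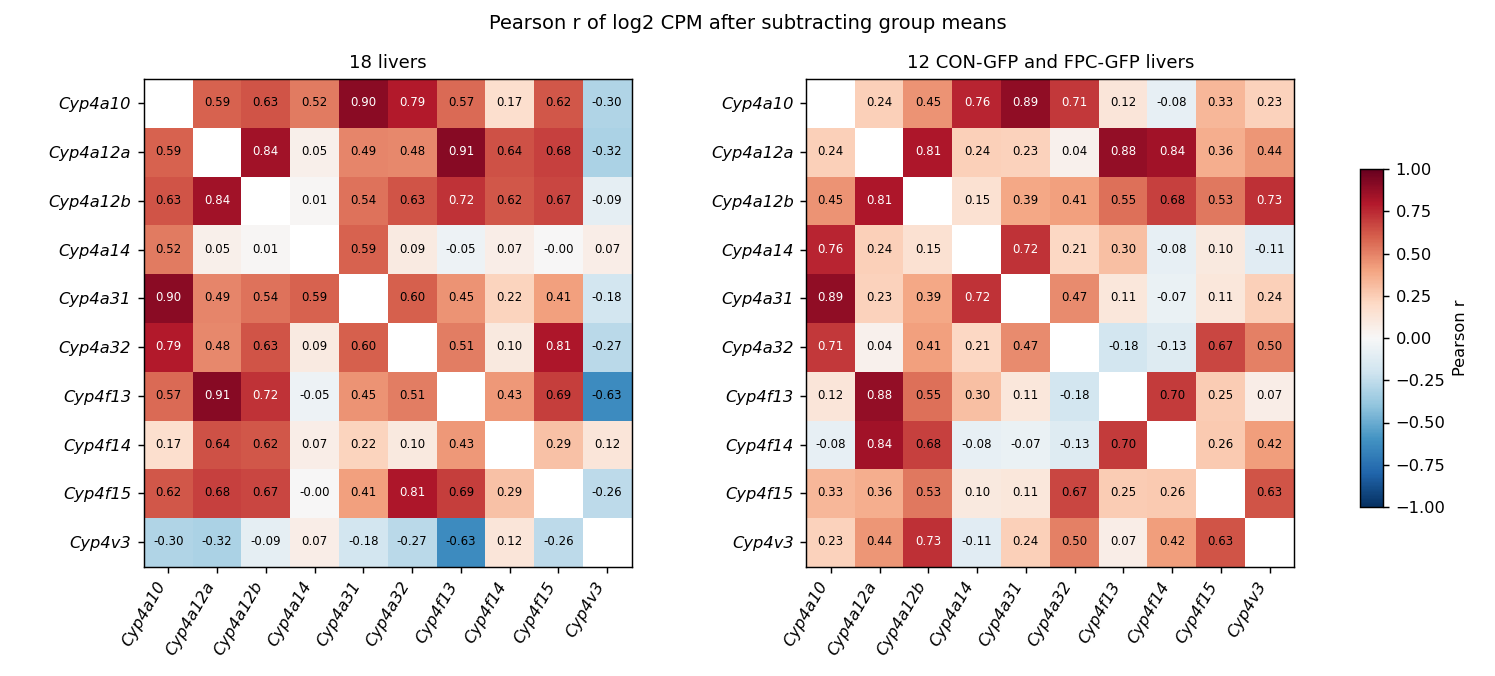
Pearson r between each pair of the 10 genes after subtracting group means from log2 CPM, over 18 livers (left) and over the 12 CON-GFP and FPC-GFP livers (right), from blue (-1) through white to red (+1). Cyp4a10 with Cyp4a31 and Cyp4a12a with Cyp4f13 are strong in both panels, while Cyp4v3 is negative with 7 of the 9 other genes on the left and with 1 on the right.

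Among 12741 genes with a mean of at least 1 CPM, Cyp4 genes not ranked, those nearest to Cyp4a12a by the same measure over 18 livers were the deubiquitinase gene Usp10 (r = 0.95), the cadherin gene Cdhr5 (r = 0.94) and Rxra (r = 0.94), the partner receptor of PPARα. Nearest to Cyp4a14 were Sco2 (r = 0.76), a copper chaperone of cytochrome oxidase, Ehhadh (r = 0.75), the peroxisomal enzyme that shortens dicarboxylic acids, and the uridine phosphorylase gene Upp1 (r = 0.75). Cyp4f14 was nearest to the tryptophan dioxygenase gene Ido2 (r = 0.86), the cathepsin gene Ctsf (r = 0.82) and the organic anion transporter gene Slc22a7 (r = 0.78). Cyp4v3 was nearest to the glucuronosyltransferase gene Ugt2b1 (r = 0.91), Phyh (r = 0.88), which breaks down phytanic acid, and the complement gene C9 (r = 0.87). Over the 12 GFP livers these correlations were 0.71 to 0.93.

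Of the 18 other Cyp4 genes of the table only 5 passed the filter on low counts. Cyp4b1, whose enzyme is best known from lung, was at 13.9 ± 4.44 CPM (SD, n = 6) in CON-GFP, 18.0 ± 2.04 in FPC-GFP and 32.0 ± 12.6 in FPC-LIPA, and its rise in FPC-LIPA against CON-GFP was DE by the quasi-likelihood test of edgeR, at 1.17 on the log2 scale (SE 0.26, adjusted p = 0.00578). Cyp4f18, the leukotriene B4 hydroxylase of neutrophils, rose in the same comparison from 0.565 ± 0.0969 to 1.57 ± 0.404 CPM (log2 fold change 1.44, SE 0.28, adjusted p = 0.00243). Cyp4f16 rose from 1.47 ± 0.355 to 3.58 ± 0.50 CPM (1.26, SE 0.23, adjusted p = 0.00167). Cyp4f17, at 25.7 ± 5.03, 19.2 ± 3.8 and 17.4 ± 7.07 CPM, and the low Cyp4f39 were not DE in any comparison, and none of the 5 was DE in the other 2 comparisons.

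Other genes that PPARα switches on were listed too. This list and those that follow were written with earlier results of these data known, so nothing is read from their counts. Of 32 listed targets 3 of 31 tested were DE and higher with the diet, 2 of 32 in FPC-LIPA against FPC-GFP and 7 of 32 in FPC-LIPA against CON-GFP, with 1 lower in the last. These stand beside the 4.76%, 10.3% and 11.8% of all genes that were DE and higher in the 3 comparisons. Their median log2 fold changes were 0.25, -0.19 and 0.16, beside 0.01, 0.04 and 0.04 for all genes. The uncoupling protein gene Ucp2 rose most with the diet, by a log2 fold change of 1.88 (adjusted p = 0.000102, SE 0.21), and the acyl-CoA thioesterase gene Acot2 most in FPC-LIPA against FPC-GFP, by 1.41 (SE 0.45, adjusted p = 0.0394). The fatty acid binding protein gene Fabp3 rose most in FPC-LIPA against CON-GFP, by 4.80 (SE 0.73, adjusted p = 0.000492). It was at 0 to 0.224 CPM in CON-GFP and 0.444 to 3.69 CPM in FPC-LIPA, so the size of that fold rests on values near 0. In the same comparison Angptl4, an inhibitor of lipoprotein lipase, fell, with -1.11 (SE 0.21, adjusted p = 0.00230). The fatty acid binding protein gene Fabp1, the most abundant target, was DE in no comparison. Ppara itself was at 83.4 ± 13.3, 84.0 ± 12.9 and 96.4 ± 32.2 CPM and was not DE. Of 14 genes for PPARα and its partners, the coactivator genes Ppargc1a and Lpin1 were DE and lower with the diet and, with Hnf4a, in FPC-LIPA against CON-GFP, and none was DE in FPC-LIPA against FPC-GFP. There Rxra had a log2 fold change of -0.95 (adjusted p = 0.0183, SE 0.23), short of 2-fold, and Hnf4a of -0.98 (SE 0.32, adjusted p = 0.0425). The medians of this list were 0.06, -0.45 and -0.47, and 2.44%, 1.11% and 3.25% of all genes were DE and lower.

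The enzymes that work with CYP4 proteins were counted next. None of 4 electron donor genes was DE in any comparison, and the most abundant, the cytochrome b5 gene Cyb5a, was at 2050 ± 496, 1145 ± 133 and 2006 ± 879 CPM. Some fell short of 2-fold alone, with adjusted p under 0.05 by the quasi-likelihood test of edgeR. These were Cyb5a and Cyb5b with the diet, at log2 fold changes of -0.85 (SE 0.16) and 0.42 (SE 0.10), and Cyb5a in FPC-LIPA against FPC-GFP, at 0.81 (SE 0.27). Of 21 genes for later steps of omega oxidation, Ehhadh rose with the diet by a log2 fold change of 1.29 (adjusted p = 0.00306, SE 0.26), the alcohol dehydrogenase gene Adh7 and the carnitine acyltransferase gene Crot rose in FPC-LIPA against FPC-GFP, by 1.38 (SE 0.40, adjusted p = 0.0303) and 1.10 (SE 0.31, adjusted p = 0.0283), and Adh7, Ehhadh and the fatty aldehyde dehydrogenase gene Aldh3a2 were DE and higher in FPC-LIPA against CON-GFP. No gene of this list was DE and lower, where 2.44%, 1.11% and 3.25% of all genes were, and the 1, 2 and 3 of 21 that were DE and higher stand beside 4.76%, 10.3% and 11.8% of all genes. Its medians were -0.05, 0.19 and 0.14. Scp2, the most abundant of them, was not DE. Aldh3a2 had log2 fold changes of 0.93 (SE 0.10) with the diet, short of 2-fold, and 0.18 (SE 0.21) in FPC-LIPA against FPC-GFP.

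Eicosanoids include substrates of Cyp4a12a and of the Cyp4f enzymes, and genes that make or remove them were listed. Of the 20, 19 and 20 tested, 3, 5 and 7 were DE and higher, and 1 was DE and lower, the prostaglandin D synthase gene Ptgds with the diet (log2 fold change -2.37, SE 0.69, adjusted p = 0.0225). All genes lean the same way, with 4.76%, 10.3% and 11.8% DE and higher against 2.44%, 1.11% and 3.25% DE and lower. Ptgds was at 0 to 1.64 CPM in CON-GFP and 0 to 0.334 CPM in FPC-GFP, with overlap, so the size of its fold rests on values near 0. Pla2g4a, the phospholipase that releases arachidonic acid, rose in all 3 comparisons, by 1.03 (SE 0.28, adjusted p = 0.0152), 1.85 (SE 0.40, adjusted p = 0.0141) and 2.85 (SE 0.38, adjusted p = 0.000193). The epoxide hydrolase gene Ephx1 rose with the diet, by 1.13 (SE 0.14, adjusted p = 0.000222), while the more abundant Ephx2 was not DE. The medians of the list were 0.25, 0.54 and 0.64. Several of these genes are known from leukocytes, whose markers were higher in the same comparisons, and the part of leukocytes here was not tested.

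Cyp4a12a belongs to the male-biased genes of mouse liver, of which 25 others were listed. Of these, 9 were DE and lower with the diet, 12 in FPC-LIPA against FPC-GFP and 17 in FPC-LIPA against CON-GFP, with 1 DE and higher in each. Over all genes 2.44%, 1.11% and 3.25% were DE and lower. Since this list too was written with earlier results of these livers known, its counts and medians are a description alone. The medians of the list were -1.08, -0.95 and -1.71, beside 0.01, 0.04 and 0.04 for all genes. The steroid dehydrogenase gene Hsd3b5 was at 91.5 to 337 CPM in CON-GFP and 0.315 to 0.725 CPM in FPC-LIPA (log2 fold change -8.19, SE 0.40, adjusted p = 2.79e-08). In FPC-GFP it had a median of 2.60 CPM and 1 liver at 106 CPM that carries the group's mean of 19.4 CPM, so no fold is given against that group. The scavenger receptor gene Scara5 had the largest fall with the diet, -3.22 (SE 0.79, adjusted p = 0.00997). The urinary protein gene Mup3 fell with the diet, by a log2 fold change of -1.64 (adjusted p = 0.00152, SE 0.29), while Mup20 rose in FPC-LIPA, by 2.26 (SE 0.52, adjusted p = 0.0159) against FPC-GFP, and Cspg5 rose with the diet, by 2.46 (SE 0.49, adjusted p = 0.00304). Mup20 was at 2266 to 29733 CPM in FPC-LIPA and 1579 to 3548 in FPC-GFP, so these groups overlapped. The low Cspg5, at 0.237 to 0.856 CPM in CON-GFP and 0.668 to 6.21 in FPC-GFP, overlapped too. Reads of Mup genes are hard to assign, since the family is nearly identical.

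Of 25 female-biased genes, 24 were in the table and 14 or 15 were tested. DE and higher were 3 with the diet, 1 in FPC-LIPA against FPC-GFP and 4 in FPC-LIPA against CON-GFP, none was DE and lower, and the medians were 0.62, 0.25 and 0.75. Over all genes 4.76%, 10.3% and 11.8% were DE and higher and 2.44%, 1.11% and 3.25% DE and lower. Cyp2a4, a steroid hydroxylase, went from 2.20 ± 2.44 CPM in CON-GFP to 126 ± 117 in FPC-GFP and 259 ± 231 in FPC-LIPA, with a log2 fold change of 5.84 (adjusted p = 0.000474, SE 0.85) for the diet. Hao2 rose in FPC-LIPA against FPC-GFP, by 1.85 (SE 0.51, adjusted p = 0.0264), and Cyp2b9 was not DE. Of 13 tested regulators of sex-biased transcription, the growth hormone receptor gene Ghr and its target Igf1 fell with the diet, by log2 fold changes of -1.06 (SE 0.20, adjusted p = 0.00232) and -1.22 (SE 0.18, adjusted p = 0.000471). Onecut1 was the only one DE in FPC-LIPA against FPC-GFP, where FPC-GFP had a median of 3.36 CPM and 1 liver at 24 CPM, and it and Igf1 were DE and lower in FPC-LIPA against CON-GFP. The medians of this list were -0.02, -0.17 and -0.51.

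Promoter windows of RefSeq (GRCm38.p6), from 250 bases before to 50 bases after a transcription start, were matched by symbol for 5 members, Cyp4a32, Cyp4f13, Cyp4f14, Cyp4f15 and Cyp4v3. None held AGGTCA, the hexamer that nuclear receptors such as PPARα bind in pairs, on either strand, and 16.3% of all 32851 windows did. The absence says only that these letters are not in these windows.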

How the data were processed

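Liver RNA of 18 mice was sequenced, 1 library per mouse, as paired reads of 150 bases. The authors trimmed the reads, mapped them with HISAT2 2.1.0 to GRCm38 (mm10) and counted them per gene with featureCounts of Subread, and the deposited values are raw counts without normalization. Strand setting, annotation release and the handling of reads with several matches are not given in the sources used here. Of 23 count columns 18 were matched to the groups by vector, diet and mouse number, and 5 were not used.

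In edgeR 4.0.16 (R 4.3.3), genes were filtered by filterByExpr, scaled by TMM and tested with its quasi-likelihood test on the 12 libraries of each comparison, with Benjamini-Hochberg adjustment over all genes tested. SE was the size of the log2 fold change divided by the square root of F. Levels are TMM-scaled CPM over 18 libraries, and log2 CPM used a prior count of 2. The test was tried on simulated counts. Errors are between mice, and precision rests on 16632146 to 37739301 counts per library. GENCODE M21 gave lengths and sequences.

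The members and gene lists were chosen with earlier results of these data known. Named were all members; other Cyp4 genes of at least 1 CPM or DE; the 2 most abundant genes of each list and, in each comparison, its DE genes of largest rise and fall, of which those that add to a result are printed; the 3 genes nearest to 4 members; ribosomal protein genes as a share; and Lipa. Genes outside this rule, such as Ppara, were added after their values were seen. Some genes under this rule are not reported here. Alternatives were DESeq2 1.42.0 size factors and Wald test, library size alone, no filter, all libraries in one fit, sheet numbers 55 to 68, no minimum fold change, removal of the length trend, summed paralogs and each library left out.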

Additional observations from a re-analysis of the deposited data

Results flagged for a closer look

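Of 30 groups of 6 livers (10 genes in 3 groups), 1 held a liver far from the others. Cyp4f15 was at 65.7 CPM in FPC-GFP 11 and at 110 to 132 CPM in the other 5 FPC-GFP livers, a gap of 0.738 of the group's whole range on the log2 scale and above Dixon's 95% limit for 6 livers. Chance flags about 1 in 20 groups. Without FPC-GFP 11 the gene was still not DE, at a log2 fold change of -0.27 (SE 0.13) for the diet and -0.46 (SE 0.22) for LIPA on the FPC diet.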

How the results depend on the processing

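Over single genes, 603 alternative values kept their direction and call, 16 turned sign, 14 lost a call and 8 gained one. The number of DE members with the diet, 2, became 0 with library size alone (5 at unadjusted p under 0.05), 0 with paralogs summed (4 so), 1 with all 18 libraries in one fit, 4 with no minimum fold change and 1 to 3 with single libraries left out. Summing merged Cyp4a12b into the row of Cyp4a12a, and Cyp4a31 and Cyp4a32 into that of Cyp4a10. Cyp4a12b and Cyp4a32, the members called with the diet, thus had no row of their own, and counts with paralogs summed cover fewer rows in each comparison. In FPC-LIPA against FPC-GFP the 2 became 0 within sheet numbers 55 to 68 (4 at unadjusted p under 0.05, and 96 genes DE in all), 1 with paralogs summed and 2 to 4 with single libraries left out. In FPC-LIPA against CON-GFP the 5 became 3 within sheet numbers 55 to 68, 3 with paralogs summed, and 3 without FPC-LIPA 36, 37 and 39, an alternative chosen after seeing the data, and 4 to 5 with single libraries left out. Signs turned for small values. Cyp4f13 was 0.09 with the diet under library size alone, which moved the median of all genes to 0.21. In FPC-LIPA against FPC-GFP, Cyp4a14 was 0.01 with DESeq2 size factors, 0.01 with the DESeq2 Wald test and -0.18 to 0.16 with single libraries left out, and Cyp4v3 was -0.09 with library size alone, -0.05 to 0.20 with single libraries left out and -0.19 without FPC-LIPA 36, 37 and 39, where Cyp4a32 was 0.02. Against CON-GFP, Cyp4a31 was 0.06 within sheet numbers 55 to 68 and 0.02 without those 3 libraries, and Cyp4a14 -0.06 without them. What made values or calls change between settings was not tested. No paired analysis was possible because the groups share no mouse number. Depth limits the lowest values, such as the 43 counts of Cyp4a12b in FPC-LIPA 37.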
